A study of Mus musculus with 2 samples.

Results

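Foxp3 regulatory T cells are described here in the spleen of C57BL/6 mice of 2 genotypes, WT and RPA1 conditional knockout (CKO). RPA1 belongs to replication protein A, the complex that coats single-stranded DNA during replication and repair. Single cells were read in droplets from the 3′ end of their transcripts, and each genotype has 1 library. The labels name no Cre driver, deleted exon, age, sex or number of mice behind a library, so the cells in which RPA1 was deleted are not known from them. The deposited values are counts of unique molecular identifiers (UMIs) per gene and barcode.

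A barcode was counted as a Foxp3 regulatory T cell where it held 200 to 6000 detected genes, under 10% mitochondrial UMIs, at least 2 UMIs of Cd3d and Cd3e together and at least 1 UMI of Foxp3, with no UMI of Cd8a, Cd8b1, Cd79a or Trdc. The rule found 163 cells among 25289 barcodes past the filters on genes and mitochondrial UMIs, 131 of them WT and 32 CKO. The UMI counts of these 7 genes chose the cells, so their levels are given as a description. A single library a genotype allows neither a check against replicates nor a test, so none is given. All intervals below are 95% intervals that cover counting error only, and "higher" and "lower" describe these libraries. Intervals of levels and ratios of levels take each UMI as an independent count. Where many UMIs of a gene came from 1 cell, they are too narrow.

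Regulatory T cells restrain immune responses and keep the immune system tolerant of the body's own tissues. The transcription factor Foxp3 maintains their identity, and high levels of the interleukin 2 receptor α chain (Il2ra) let them take up interleukin 2. Resting, or central, regulatory T cells recirculate through the spleen and lymph nodes and keep genes of naive T cells such as Ccr7, Tcf7 and Satb1. Effector regulatory T cells form after antigen encounter, divide, enter tissues and carry more Icos, Klrg1, Ctla4, Tnfrsf4 and S100 genes.

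The WT library held 13291 barcodes and the CKO library 12958, of which 12679 and 12610 passed the filters on genes and mitochondrial UMIs. Regulatory T cells of the WT library held 950595 UMIs, with a median of 5913 per cell (1995 to 36450), and those of the CKO library 162051 UMIs, with a median of 4859.5 (2941 to 9167). A level is given in CPM, the gene's UMIs summed over the regulatory T cells of a library, per 1000000 UMIs of those cells. A count of 0 allows up to 3.16 CPM in the WT and 18.5 CPM in the CKO cells, which is 3 counts over the group, so the precision of the CKO levels is the lower one. The libraries shared 36 barcode sequences, and none belonged to a regulatory T cell. No regulatory T cell was marked as a doublet by Scrublet.

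Regulatory T cells were scarcer in the CKO spleen, about as much as other CD4 T cells were. They made up 1.03% (0.865 to 1.22) of WT and 0.254% (0.174 to 0.358) of CKO barcodes, 4.07-fold lower, with a ratio of 0.246 (0.161 to 0.364). CD4 T cells without a Foxp3 UMI, defined by the same rule with at least 1 Cd4 UMI and no Foxp3 UMI, numbered 1146 (WT) and 265 (CKO), a ratio of shares of 0.233 (0.203 to 0.266). Of the T cells that met every condition but Foxp3, 131 of 1867 in the WT (7.02%, 5.90 to 8.27) and 32 of 415 in the CKO library (7.71%, 5.33 to 10.7) held a Foxp3 UMI, a ratio of 1.10 (0.722 to 1.63). After each cell was thinned to 2000 UMIs, which removes the difference in depth, these shares were 4.13% and 5.25%, a ratio of 1.27 (0.695 to 2.21). A difference in the Foxp3 share of T cells was thus not detectable at this depth, within the span of that interval.

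The conditions that exclude other cell types removed more Foxp3-positive cells from the CKO library, relative to those kept. Without the Cd79a condition, which keeps out B cells, 37 WT and 28 CKO cells would join. Their medians were 8192 and 10010.5 UMIs, and Scrublet marked 22 and 18 of them as doublets. The ratio of barcode shares was then 0.359 (0.263 to 0.485), and 0.393 (0.297 to 0.515) without all 4 exclusions. Just inside the Foxp3 threshold, 53 WT and 18 CKO members held 1 Foxp3 UMI, and Ikzf2 was seen in 79.2% and 66.7% of them. Just outside it, among the 1736 WT and 383 CKO T cells with no Foxp3 UMI, Ikzf2 was seen in 14.2% and 11.7%.

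The cells were checked against the markers of their name. Foxp3 (ENSMUSG00000039521, mm10 chromosome X, 7573644 to 7595245, plus strand) gave 324 counts in WT and 68 in CKO cells, and at least 2 UMIs in 78 WT and 14 CKO cells. B cells, taken as barcodes with Cd79a and no Cd3 UMI, held a Foxp3 UMI in 0 of 7263 WT barcodes, which allows up to 0.0413%, and in 4 of 10007 CKO barcodes (0.0400%), at median depths of 4666 and 4462 UMIs. Among the other 4 markers, at least 2 were seen in 114 of 131 WT cells (87.0%, 80.0 to 92.3) and in 21 of 32 CKO cells (65.6%, 46.8 to 81.4). CD4 T cells without Foxp3 passed that mark in 8.38% and 6.42% of cells, so they may hold some regulatory T cells whose Foxp3 was not read. Cd4, which the rule did not use, was seen in 82 WT and 20 CKO members, 62.6% and 62.5%. The data bear out the name in both libraries.

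Helios (Ikzf2), a transcription factor of regulatory T cells, was the most abundant marker. It stood at 1137 CPM in WT and 845 CPM in CKO cells, a ratio of 0.743 (0.618 to 0.889). Ctla4, the inhibitory receptor that strips costimulatory ligands from antigen-presenting cells, was at 206 CPM (196 counts) in WT and 80.2 CPM (13 counts) in CKO cells, 2.57-fold lower, with a ratio of 0.389 (0.204 to 0.681). It was seen in 79 of 131 WT and 7 of 32 CKO cells, and in B cells in 0.344% and 0.190%. Il2ra was at 259 and 111 CPM, 2.33-fold lower (ratio 0.429, 0.250 to 0.693), and was seen in 72 WT and 12 CKO cells. Tnfrsf18, which encodes the receptor GITR, stood at 348 and 247 CPM (0.709, 0.497 to 0.986), and Foxp3 itself at 341 and 420 CPM (1.23, 0.934 to 1.60). Of the 5 markers 2, Ctla4 and Il2ra, were at least 1.5-fold lower and none was higher, with a median log2 ratio of −0.49. Foxp3 and Helios stood within 1.5-fold. Without the Cd79a condition the Foxp3 ratio was 0.736 and the Ctla4 ratio 0.199.

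**Figure D1:**
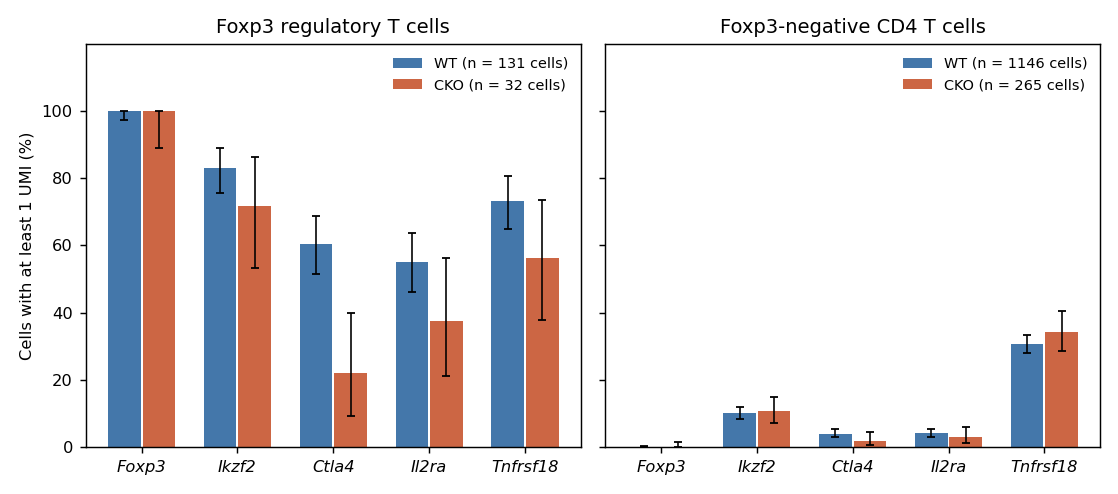
Percentage of cells with at least 1 UMI of each regulatory T cell marker (bars) in the WT and CKO library, with exact 95% binomial intervals, for regulatory T cells (left) and CD4 T cells without a Foxp3 UMI (right). Foxp3 is at 100% on the left and at 0 on the right by the rule. At full depth Ctla4 was seen in 60.3% of WT and 21.9% of CKO regulatory T cells, and Ikzf2 in 83.2% and 71.9%.

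Against CD4 T cells without Foxp3 of the same library, all 4 other marker genes were higher in both genotypes. Foxp3 chose the cells, so these folds describe that choice. In WT cells Ikzf2 was 18.7-fold, Ctla4 19.8-fold and Il2ra 15.7-fold higher, and in CKO cells 11.6-fold, 23.4-fold and 19.4-fold. Tnfrsf18 was 5.42-fold higher in WT and 3.30-fold (2.25 to 4.73) in CKO cells. By a fixed ranking, the genes highest in WT regulatory T cells also included the costimulatory receptors Tnfrsf4 (18.0-fold) and Tnfrsf9 (10.0-fold), the semaphorin receptor Nrp1 (12.2-fold), Ikzf4, a relative of Helios (9.23-fold), the actin regulators Coro2a (10.5-fold) and Tiam1 (10.1-fold), Neb (19.6-fold), Klrg1 (57.1-fold) and the opioid precursor Penk. Penk rested on few cells, since 49.6% of its 139 WT counts came from 1 of the 7 cells that held it. In CKO cells Ikzf4 and Coro2a stood at 7.51-fold and 9.85-fold, Tnfrsf4 at 8.39-fold, Nrp1 at 4.63-fold and Tnfrsf9 at 3.35-fold. Tiam1 gave 2 CKO counts, a ratio of 1.35 (0.150 to 5.74), and Klrg1 none.

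Gene by gene, regulatory T cells of the 2 libraries were compared over 4392 genes with a mean of at least 30 CPM, called measured below. Of these, 15.3% were at least 1.5-fold higher and 16.8% at least 1.5-fold lower in CKO cells, and the median log2 ratio (pseudocount 1 CPM) was 0.02. With 32 CKO cells many of these folds lie within counting error, and each gene list below is read against those percentages. In the larger groups of CD4 T cells without Foxp3, 2.3% of 4175 measured genes were at least 1.5-fold higher and 1.2% lower.

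Genes of effector regulatory T cells were lower in CKO cells nearly throughout. Of the 33 genes of that list 21 were measured, and 20 of them were at least 1.5-fold lower and none higher, against 16.8% of all measured genes. Their median log2 ratio was −1.71. Gata3, a transcription factor of type 2 helper cells, was the exception, with 132 WT and 17 CKO counts (0.755, 0.427 to 1.26). Counting every size and every level, all 33 were lower in CKO cells, 12 of them with no CKO count, where 61.3% of all genes with a UMI were lower. In CD4 T cells without Foxp3, 4 of 13 measured genes of the list were lower, none was higher and the median was −0.15, and 5 of 12 were lower with a median of −0.52 once cells marked as doublets were removed, where 1.41% of all measured genes were lower. Whether regulatory T cells and other CD4 T cells differ in this was not tested. With those doublets removed, CD4 T cells without Foxp3 still held neutrophil markers at 3300 CPM in the CKO and 33.7 CPM in the WT library.

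The S100 genes of the list, small calcium-binding proteins that mark activated and migrating T cells, included S100a6, the effector gene with the largest fold. S100a6 (ENSMUSG00000001025, mm10 chromosome 3, 90612882 to 90624181, plus strand) gave 616 counts in 42 of 131 WT cells and none in the 32 CKO cells. That is 648 CPM against 0 CPM, at least 35.0-fold lower with the CKO cells set to 3 counts. Single WT cells ranged from 0 to 127 UMIs of S100a6 with a median of 0, so its RNA lay in a minority of WT cells. The 2 groups overlap at 0, where the other WT cells and all CKO cells lie. CD4 T cells without Foxp3 held S100a6 at 125 CPM in the WT and 132 CPM in the CKO library. Without the cells marked as doublets these levels were 119.6 and 57.1 CPM, a ratio of 0.477 (0.380 to 0.594), so the direction there turned on those cells. B cells held it in 6.03% and 8.20% of barcodes.

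S100a11 stood at 445 CPM in WT and 43.2 CPM in CKO cells, 10.3-fold lower (0.0971, 0.0388 to 0.202), and was seen in 69 WT and 6 CKO cells. S100a10, present in 125 of 131 WT and 28 of 32 CKO cells, was at 1449 and 438 CPM, 3.31-fold lower. S100a4 was at 366 and 130 CPM, but all 21 of its CKO counts came from 1 cell, against 27 WT cells that held it. The 4 genes lie on chromosome 3, S100a4 (90603771 to 90606045) beside S100a6, and S100a11 (93520488 to 93526287) beside S100a10 (93555080 to 93564643). When the exclusions of the rule were dropped, the S100a6 ratio was 0.0734 and the S100a11 ratio 0.369.

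Among surface receptors, 10 of 14 measured genes were at least 1.5-fold lower in CKO cells and none higher, with a median log2 ratio of −1.29. Icos, the inducible costimulator, gave 161 counts in 56 WT cells and 3 counts in 3 CKO cells, or 169 and 18.5 CPM (0.109, 0.0223 to 0.325). Tnfrsf4, the receptor OX40, was at 497 CPM in WT and 173 CPM in CKO cells, 2.87-fold lower. Izumo1r, the folate receptor 4 of regulatory T cells, was seen in 113 of 131 WT and 16 of 32 CKO cells, at 602 and 253 CPM (0.420, 0.298 to 0.578). These 3 receptors were thus lower in level. After thinning, Izumo1r was seen in 66.9% of WT and 31.2% of CKO cells, with intervals that did not overlap. Icos was then seen in 14.6% and 3.1% of cells, and Tnfrsf4 in 40.8% and 21.9%. For Icos and Tnfrsf4 the intervals overlapped, which by itself neither shows nor excludes a difference in the share of cells. At full depth, where the CKO median was lower, Icos was seen in 42.7% of WT (34.1 to 51.7) and 9.4% of CKO cells (1.98 to 25.0).

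Nrp1 stood at 197 and 55.5 CPM (0.282, 0.127 to 0.548), Tnfrsf9, the receptor 4-1BB, at 142 and 55.5 CPM (0.391, 0.175 to 0.765), and Tnfrsf1b, a receptor of tumour necrosis factor, at 57.9 and 12.3 CPM (0.213, 0.0252 to 0.808). Klrg1, an inhibitory receptor of terminally differentiated effector cells, gave 75 counts in 18 WT cells and none in CKO cells, at least 4.26-fold lower. After thinning it was seen in 15 of 130 WT cells (11.5%, 6.60 to 18.3) and in 0 of 32 CKO cells. The intervals of these shares overlapped, which by itself neither shows nor excludes a difference. Gpr83 (77.8 and 74.1 CPM) and Il2rb, the β chain of the interleukin 2 receptor (240 and 179 CPM), had intervals that included 1. Cd27, a costimulatory receptor kept on resting cells, was the member above 1, at 276 and 383 CPM (1.39, 1.03 to 1.84). Under other settings the Cd27 ratio fell as low as 0.696.

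Suppressive molecules overlap with these receptors. Of 5 measured genes 4 were lower, with a median log2 ratio of −1.22. Nt5e, the ectoenzyme CD73 that makes adenosine, gave 116 WT and 4 CKO counts (0.202, 0.0542 to 0.532). Lrrc32, which holds latent TGF-β at the surface, was at 54.7 and 24.7 CPM (0.451, 0.119 to 1.23). Lgals1, galectin 1, was at 665 and 284 CPM (0.427, 0.309 to 0.576), and Tgfb1 gave 115 and 17 counts (0.867, 0.488 to 1.45). The Lgals1 direction depended on which cells were kept, since its ratio was 3.86 in the 30 WT and 12 CKO cells with fewer than 2 UMIs of other cell types' markers. Il10 gave 5 WT counts and no CKO count, and Gzmb 23 WT counts, 56.5% of them from 1 cell, so neither could be compared. Il12a had no count in either library.

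Of the transcription factors of the effector list, Maf and Rora had intervals below 1, while the intervals of Batf and Gata3 included 1. Maf (mm10 chromosome 8, 115682942 to 115707794, minus strand) gave 193 counts in 52 WT cells and 3 counts in 2 CKO cells, 203 and 18.5 CPM (0.0912, 0.0186 to 0.270). Its ratio in CD4 T cells without Foxp3 was 0.161. Rora, a receptor of tissue regulatory T cells, gave 48 and 2 counts, and Batf, which cooperates with Irf4, 116 and 11 counts (0.556, 0.270 to 1.03). The Rora direction depended on which cells were kept. Its ratio was 1.26 with at most 5 effector genes and 5.24 with fewer than 2 UMIs of other cell types' markers. Irf4 and Prdm1, which encodes Blimp-1, each gave 16 WT counts and no CKO count, too few to place either. Of the 5 measured genes of the list of helper lineages and follicular regulatory cells, Maf, Rora and Sh2d1a, an adaptor of follicular cells (187 and 67.9 CPM), were lower and none was higher, with a median log2 ratio of −1.45.

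Adhesion and cytoskeleton genes of the effector list were lower too. Itgb1, the integrin β1 chain, was at 301 CPM in WT and 92.6 CPM in CKO cells, 3.25-fold lower, and Vim, the intermediate filament vimentin, at 487 and 148 CPM, 3.29-fold lower. Cd44, the hyaluronan receptor that marks activated T cells, gave 55 and 2 counts, 57.9 and 12.3 CPM (0.213, 0.0252 to 0.808). Rgs1, which dampens chemokine receptor signals, was at 181 and 55.5 CPM, and the glutaredoxin Glrx at 84.2 and 12.3 CPM. Crip1, a LIM domain protein, was just past 1.5-fold at 1000.4 and 666 CPM, and the scaffold protein Ahnak gave 199 and 17 counts.

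Genes of resting regulatory T cells were higher in CKO cells. All 14 genes of that list were measured, 11 were at least 1.5-fold higher and none was lower, against 15.3% of all measured genes, with a median log2 ratio of 0.77. All 14 lay above a ratio of 1, where 51.6% of all measured genes did. In CD4 T cells without Foxp3, 2 were higher, 1 was lower and the median was 0.07. The median in regulatory T cells was 0.30 without the Cd79a condition.

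Satb1 (mm10 chromosome 17, 51736187 to 51833290, minus strand), a chromatin organiser of thymocytes and naive T cells that precedes Foxp3 in development, stood out in this list. It gave 228 counts in 69 of 131 WT cells and 119 counts in 30 of 32 CKO cells, 240 and 734 CPM, 3.06-fold higher (2.43 to 3.84). Single cells held 0 to 10 UMIs with a median of 1 in the WT and a median of 3.5 in the CKO library. After thinning it was seen in 33.1% of WT and 81.2% of CKO cells. CD4 T cells without Foxp3 held it at 584 CPM in the WT and 658 CPM in the CKO library, and B cells in 46.8% and 46.9% of barcodes. The CKO regulatory T cells were thus near the level of other CD4 T cells, and the WT ones below it.

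Among the other genes of the resting list, S1pr1, the receptor that guides exit from lymphoid organs, stood at 217 CPM in WT and 352 CPM in CKO cells (1.62, 1.19 to 2.19). Ccr7, the receptor for lymph node chemokines, was at 104 and 222 CPM (2.13, 1.41 to 3.15). Its ratio was 0.852 among cells with at least 2 Foxp3 UMIs. Ly6c1 was at 82.1 and 216 CPM (2.63, 1.71 to 3.97), with 31.4% of its CKO counts from 1 cell.

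The transcription factors Lef1 (246 and 426 CPM), Tcf7 (183 and 309 CPM), Foxp1 (306 and 537 CPM) and Bach2 (58.9 and 123 CPM), which keep T cells in a resting state, were 1.69-fold to 2.10-fold higher. Bcl2, which protects cells from apoptosis, stood at 232 and 389 CPM (1.67, 1.24 to 2.22). Klf2, which drives S1pr1, was at 524 and 722 CPM (1.38, 1.12 to 1.69), but its ratio fell as low as 0.471 under other settings. Il7r, the interleukin 7 receptor (1.06), and Il6ra (1.23) had intervals that included 1. Igfbp4 gave 55 and 18 counts (1.92, 1.06 to 3.32).

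**Figure D2:**
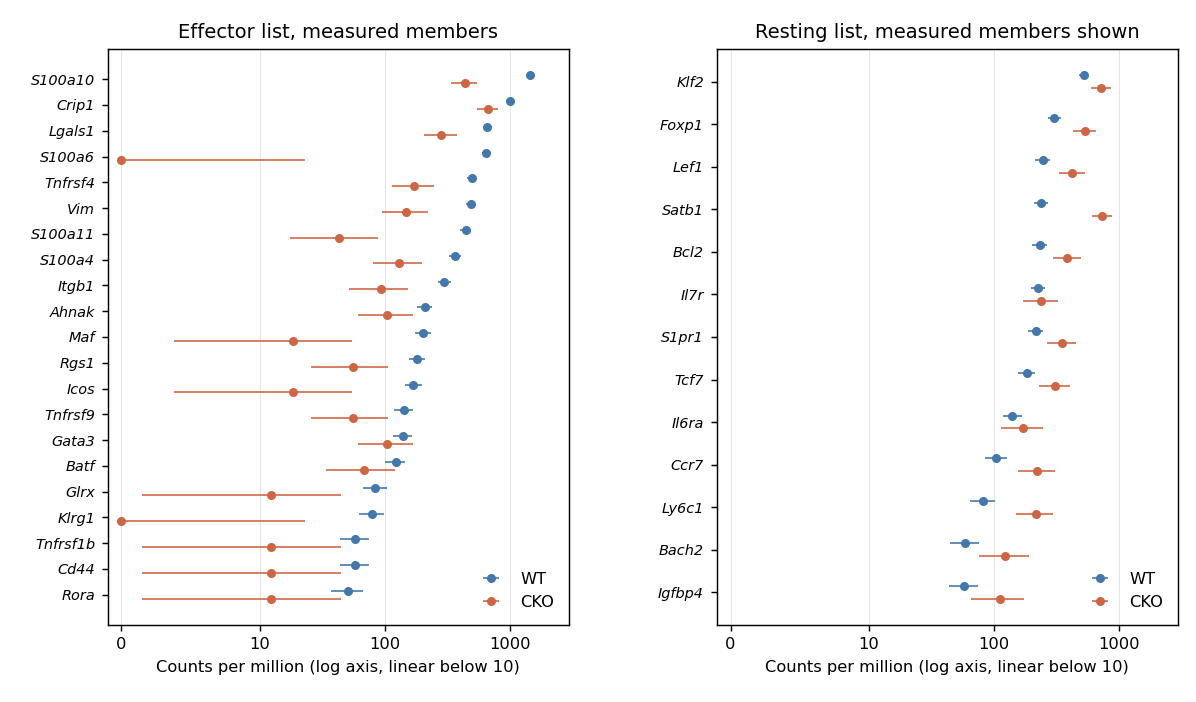
Level of measured genes of the effector list (left) and the resting list (right) in regulatory T cells of the WT and CKO library, in CPM on a log axis that is linear below 10. Lines are exact Poisson 95% intervals. CKO points lie left of the WT points for every effector gene shown, with S100a6 and Klrg1 at 0, and right of them for every resting gene shown, most widely for Satb1.

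Both lists were also counted in each cell. At 2000 UMIs per cell, WT regulatory T cells held a median of 5 of the 33 effector genes (0 to 16, n = 130 cells) and CKO cells a median of 2 (1 to 8, n = 32 cells). At least 6 effector genes were seen in 56 WT cells (43.1%, 34.4 to 52.0) and in 2 CKO cells (6.25%, 0.766 to 20.8). For the 14 resting genes the medians were 4 in WT and 6 in CKO cells, and at least 6 were seen in 40 WT cells (30.8%) and 25 CKO cells (78.1%), with intervals that did not overlap. CD4 T cells without Foxp3 had medians of 2 effector and 6 resting genes in both libraries. WT cells thus ran from few effector genes to many. All but 2 CKO cells held at most 5 effector genes, and 1 CKO cell held 11 resting genes, more than the highest WT cell (9).

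**Figure D3:**
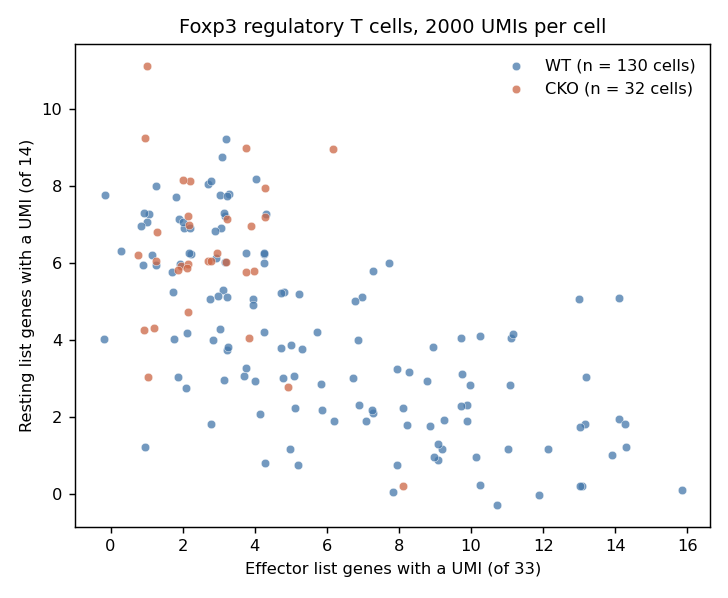
Each point is 1 regulatory T cell thinned to 2000 UMIs, placed by how many of the 33 effector genes (x axis) and of the 14 resting genes (y axis) it held a UMI of, with small random offsets to separate points. WT cells (n = 130) reach 16 effector genes, while 30 of the 32 CKO cells hold at most 5.

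When only cells with at most 5 effector genes were compared, 74 WT cells (56.5%) and 30 CKO cells (93.8%) remained. This choice was made after the data were seen and uses the effector list itself, so that list is given as a description. WT cells with many effector genes tended to hold fewer resting genes, so the choice moves the resting list too. Its values here are also a description. Of 4245 measured genes 17.9% were at least 1.5-fold higher and 13.3% lower in the CKO cells. Of the resting list 2 of 14 genes were at least 1.5-fold higher and none lower. The resting list's median was 0.31 in these cells, where that of all measured genes was 0.07. Of 12 measured effector genes 2 were higher and 5 lower, with a median of −0.28. Satb1 stood at 390 and 683 CPM in these cells, a ratio of 1.75 (1.37 to 2.24), and Il2ra at 344 and 118 CPM (0.344, 0.199 to 0.561). Izumo1r (0.439, 0.306 to 0.615), Nrp1 (0.311, 0.130 to 0.643) and Itgb1 (8 CKO counts against 90 in WT cells) also stayed lower. The direction of Lgals1 (1.67), Batf (1.73), Ahnak (1.14), Crip1 (1.20) and Rora (1.26) was the opposite one there.

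Several cycling genes together were seen in a minority of WT cells and in no CKO cell. At full depth 17 of 131 WT cells (13.0%) and 0 of 32 CKO cells, which allows a share of up to 9.38% at 3 cells, held UMIs of at least 3 of 24 cycling genes. After thinning, 4 of 130 WT cells did, and a difference was not detectable at that depth. Mki67, a protein of dividing cells, gave 187 counts in 21 WT cells and none in CKO cells, at least 10.6-fold lower, and Top2a, a topoisomerase, 150 counts in 19 WT cells and none. Cenpa, the histone of the centromere, was the cycling gene with most CKO counts, 15 against 155 in WT cells (0.568). All 24 genes were lower in CKO cells and 7 of 7 measured ones at least 1.5-fold lower. The median log2 ratio was −6.67, or −2.43 with CKO zeros set to 3 counts. From 23.4% to 63.6% of a gene's WT counts came from 1 cell. Without the cycling cells the median over the measured genes that remained was 0.48.

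The wider DNA replication list, with 10 measured genes, held 1 higher and 2 lower gene and a median of −0.00. Mcm4 of the replicative helicase was at 52.6 and 55.5 CPM and Pcna, the sliding clamp, at 93.6 and 86.4 CPM. The targeted gene, Rpa1 (mm10 chromosome 11, 75298166 to 75348324, minus strand), gave 41 counts in 36 WT cells and 2 counts in 2 CKO cells, 43.1 and 12.3 CPM. Its ratio of 0.286 had an interval of 0.0335 to 1.10, which includes 1. After thinning, CD4 T cells without Foxp3 held Rpa1 in 8.73% (WT) and 8.33% (CKO) of cells, and B cells in 6.80% and 6.22%. A 3′ tag outside the deleted part would not show the deletion. Rpa2, the middle subunit, gave 26 and 0 counts, and Rpa3, the small one, 33 and 6 (1.07, 0.365 to 2.58). Of the 6 measured genes of the RPA and ATR checkpoint list, Etaa1, an activator of ATR, was higher (7 CKO counts) and none was lower, with a median of 0.12.

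Of Foxp3's partners and regulators 12 of 20 measured genes stood within 1.5-fold. Another 6 were at least 1.5-fold higher, against 15.3% of all measured genes, and 2 were lower, against 16.8%. The median log2 ratio of the list was 0.16. The higher ones included Satb1 and Bach2, given above, Foxo1, which keeps resting cells quiescent (177 and 284 CPM; 1.61, 1.13 to 2.24), and Rel, the NF-κB subunit that opens the Foxp3 locus (128 and 234 CPM; 1.83, 1.23 to 2.65). Ets1 (938 and 1074 CPM), Ikzf4 (90.5 and 98.7 CPM) and Runx1 (88.4 and 80.2 CPM), which bind with Foxp3, stood within 1.5-fold. Nfatc1 (0.510) and Ezh2 (0.579) were lower, with intervals that included 1.

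Interleukin 2 signalling showed the same lower Il2ra without a shift of the pathway. Of 14 measured genes 2 were higher and 3 lower, with a median of 0.17. The common γ chain Il2rg was at 342 and 376 CPM (1.10, 0.823 to 1.45), Jak1 at 419 and 623 CPM (1.49, 1.18 to 1.86) and Stat5b at 88.4 and 111 CPM. Cish, a target of Stat5, stood at 98.9 and 74.1 CPM (0.749, 0.374 to 1.37), and Socs2, another, gave 47 and 3 counts (0.374, 0.0745 to 1.16).

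Among genes of T cell receptor signalling and the immediate early response, 6 of 15 measured were higher and 1 lower, with a median of 0.42. The direction of this median depended on which cells were kept, since it ran from −0.96 to 0.46 over the settings. Nr4a1, an early gene of receptor signalling, was at 55.8 and 173 CPM (3.10, 1.89 to 4.99), although 53.6% of its CKO counts came from 1 cell. Nfkbia, the inhibitor of NF-κB, stood at 351 and 580 CPM (1.65, 1.30 to 2.08), and the phosphatase Dusp2 at 189 and 321 CPM (1.69, 1.22 to 2.32). Cd5, whose level follows receptor signal strength, was at 401 and 537 CPM (1.34, 1.05 to 1.69). Cd69, Junb and Jun had intervals that included 1. Heat shock genes, which mark dissociation stress, lay within 1.5-fold in all 10 measured members, with a median of 0.02.

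Genes of recent thymic emigrants were measured in few counts. Of 6 measured genes 4 were higher and none lower, with a median of 1.13. Counting every size and every level, 7 of 13 genes with a UMI were higher and 6 lower, where 38.7% of all genes with a UMI were higher. Sox4, a factor of immature thymocytes, gave 7 counts in WT and 9 in CKO cells, 7.36 and 55.5 CPM (7.54, 2.50 to 23.8). Its level in CD4 T cells without Foxp3 was 26.1 CPM in the WT and 61.2 CPM in the CKO library. Themis, a regulator of receptor signalling in thymocytes, was at 45.2 and 123 CPM (2.73, 1.52 to 4.74), and the sialyltransferase St8sia6 at 45.2 and 111 CPM (2.46, 1.33 to 4.35). The emigrant genes Ccr9 (12 and 6 counts) and Ly6d (12 and 7 counts) were below the level measured, Cd38 gave 21 counts in WT cells and none in CKO cells, and Gpr83 and Tox lay within 1.5-fold.

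Genes that an earlier analysis of these libraries had found higher in CKO CD4 T-like cells were higher in the regulatory T cells too. All 7 measured genes were at least 1.5-fold higher, with a median of 1.01, and all 11 lay above a ratio of 1, where 38.7% of all genes with a UMI did. That list was chosen on these same libraries, so it is not independent evidence. Apart from Sox4 and Nr4a1 it holds Tubb2a, a β-tubulin (24.2 and 80.2 CPM; 3.32, 1.54 to 6.83), Mxd1, which opposes Myc (54.7 and 111 CPM; 2.03, 1.12 to 3.53), and Igf1r, the insulin-like growth factor receptor (62.1 and 123 CPM; 1.99, 1.13 to 3.35). In CD4 T cells without Foxp3 the median was 1.07. Among regulatory T cells with at most 5 effector genes, 6 of 8 measured genes of the list were higher. Of the list lowered in CD4 T-like cells, 4 of 6 measured genes, S100a6, Maf, Itgb1 and the histone gene Hist1h1b, were lower. Dapl1 was higher at 54.7 and 111 CPM, whereas it stood at 319 and 129 CPM in CD4 T cells without Foxp3.

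The p53, apoptosis, interferon and homing lists had median log2 ratios between −0.10 and 0.26. Of all measured genes 15.3% were higher and 16.8% lower. Of 11 measured p53 targets 2 were higher and 2 lower (median 0.01), with Sesn1 at 87.3 and 154 CPM, Bax at 147 and 148 CPM and Trp53inp1 with 116 and 10 counts (0.506, 0.236 to 0.964). Of 11 apoptosis and survival genes 3 were higher and 3 lower (median 0.26), among them Bcl2a1b, a survival gene induced by NF-κB, at 162 and 30.9 CPM (0.190, 0.0610 to 0.454), and Birc2 at 93.6 and 191 CPM (2.04, 1.31 to 3.11). Bcl2a1b has near-identical copies among which reads can be split, so its level is uncertain. Of 23 type I interferon genes 1 was higher and 5 lower (median −0.10). Ifi27l2a, the most abundant of them, stood at 2470 and 1271 CPM (0.515, 0.444 to 0.594), while Ifi203 (442 and 432 CPM) and Ifi209 (260 and 278 CPM) were even. Eif2ak2, the kinase PKR, gave 62 and 1 counts (0.0946, 0.00236 to 0.547), and the nucleic acid sensor Zbp1 97 and 8 counts (0.484, 0.203 to 0.992). Of 10 measured homing receptors 3 were higher, Ccr7 and S1pr1 among them, and 2 lower, Itgb1 and Itgal, the αL chain of LFA-1 (136 and 86.4 CPM; 0.637, 0.339 to 1.11), with a median of 0.08.

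**Figure D4:**
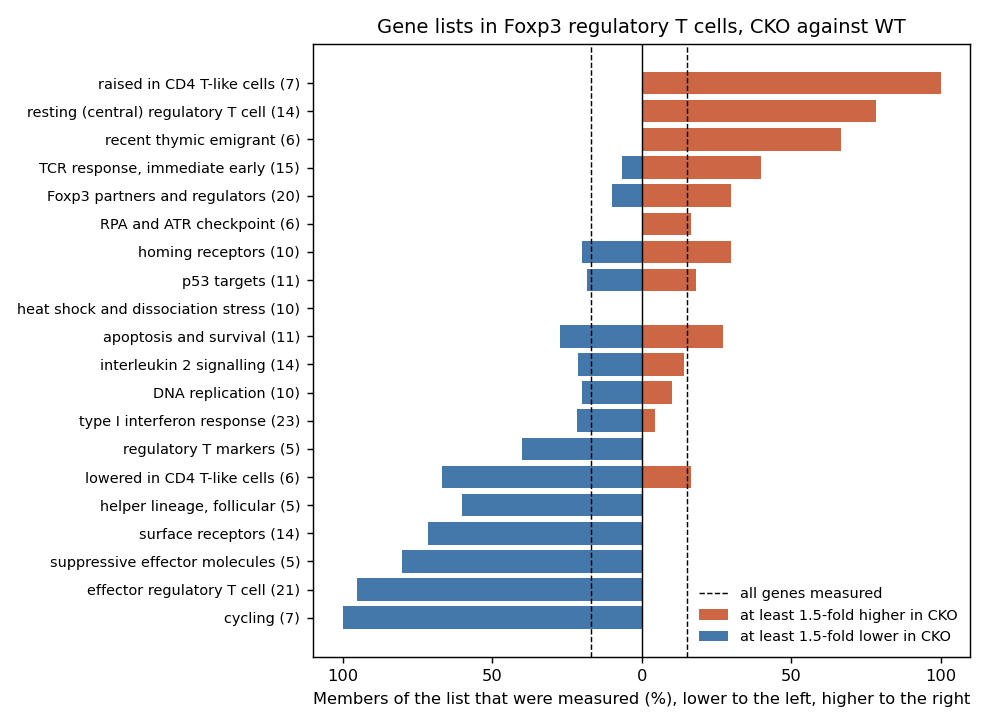
Percentage of the measured genes of each list (number measured in parentheses) that were at least 1.5-fold higher (right) or lower (left) in CKO than in WT regulatory T cells, with the percentages of all measured genes as dashed lines (15.3% higher, 16.8% lower). The cycling and effector lists lie far to the left and the resting list and the list raised in CD4 T-like cells far to the right.

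Over all measured genes a fixed ranking by the bound of the ratio interval nearest to 1 named 12 genes in each direction. Those higher in CKO cells were, besides Satb1 and Sox4, Smc6, a subunit of a chromosome maintenance complex that acts in DNA repair (246 and 555 CPM; 2.26, 1.75 to 2.89), Sipa1l1, a regulator of the GTPase Rap (48.4 and 173 CPM), the kinase Stk26 (47.3 and 160 CPM), the transcription factors Klf7 (44.2 and 148 CPM) and Zhx1 (19 and 14 counts; 4.32, 2.01 to 9.09), Epb41l2, which links the membrane to the cytoskeleton (47.3 and 142 CPM), Tbcel (23.1 and 92.6 CPM), Sdhaf4, an assembly factor of succinate dehydrogenase (26.3 and 98.7 CPM), Hmgcs1 of cholesterol synthesis (25.2 and 92.6 CPM) and the syntaxin Stx2, with 4 WT and 10 CKO counts. Smc6 was seen in 98 of 131 WT and 30 of 32 CKO cells, the broadest of them beside Satb1. In CD4 T cells without Foxp3 the ratios of Smc6, Sipa1l1, Stk26 and Klf7 were 1.35, 1.19, 1.17 and 1.35.

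Those lower in CKO cells were S100a6, S100a11, Maf, the cycling genes Mki67, Top2a, Cenpf and Ube2c, the histone genes Hist1h1b, Hist1h4d and H2afx, Penk and AW112010. AW112010 stood at 832 CPM in 100 WT cells and 142 CPM in 12 CKO cells, 5.86-fold lower (0.171, 0.107 to 0.258), with a ratio of 0.546 in CD4 T cells without Foxp3. Hist1h4d gave 132 counts in 46 WT cells and 1 count in CKO cells. For Hist1h1b, Ube2c and Penk between 46.9% and 49.6% of the WT counts came from 1 cell.

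**Figure D5:**
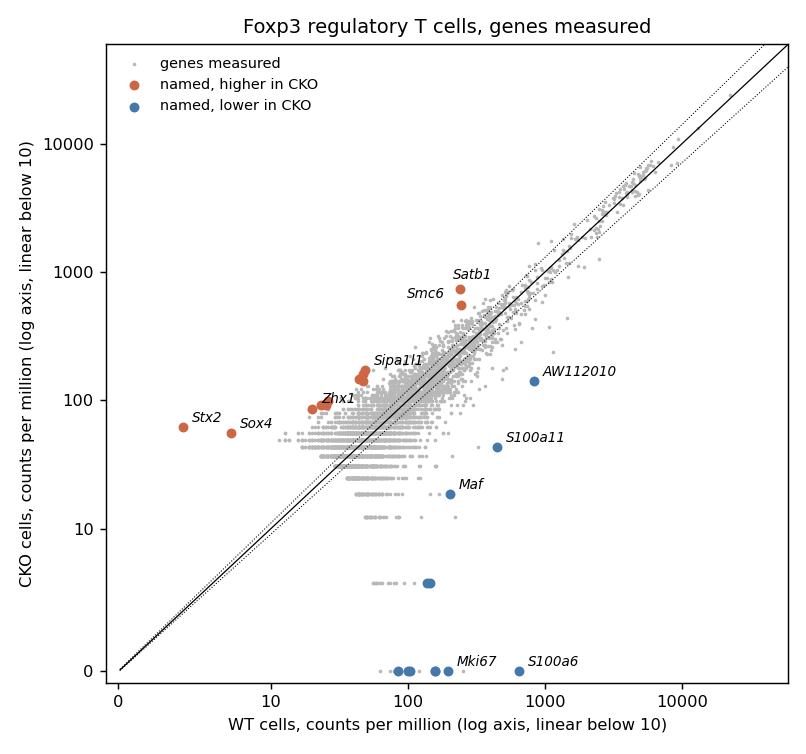
Level of each of the 4392 measured genes in regulatory T cells of the WT (x axis) and CKO (y axis) library, in CPM on log axes that are linear below 10. The solid line marks equal levels and the dotted lines 1.5-fold. Colours mark the 12 genes named in each direction, with S100a6 at 648 and 0 and Satb1 at 240 and 734.

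RNA of other cell types was present in the regulatory T cells of both libraries. Fewer than 2 UMIs of B cell, monocyte, neutrophil and NK cell markers were held by 30 of 131 WT (22.9%) and 12 of 32 CKO cells (37.5%). With Ighm and Ighd not counted, 69 WT and 20 CKO cells did. Markers of B cells summed to 734 CPM in WT and 333 CPM in CKO cells, against 31269 and 27635 CPM in B cells, with Cd79a at 0 by the rule and Cd22 at 0 in CKO cells. Markers of CD8 T cells (3 genes) and platelets (2 genes) were at 0 in both. Of these and the γδ T cell markers below, Cd8a, Cd8b1 and Trdc were at 0 by the rule. NK cell markers summed to 9.47 and 6.17 CPM with 3 and 6 of 7 at 0, γδ T cell markers to 10.5 and 0 CPM with 2 and 6 of 6 at 0, and erythroid markers to 4.21 and 0 CPM. Neutrophil markers summed to 38.9 and 61.7 CPM, monocyte or macrophage markers to 156 and 148 CPM (Csf1r at 0 in both), dendritic cell markers to 135 and 92.6 CPM with 5 of 6 at 0 in both, NKT markers to 36.8 and 24.7 CPM and plasma cell markers to 55.8 and 18.5 CPM. The general T cell markers stood at 6211 and 5560 CPM. In the CD4 T cells without Foxp3 of the CKO library, neutrophil markers summed to 2946 CPM and erythroid markers to 703 CPM, against 33.3 and 1.38 CPM in the WT library. Without the cells marked as doublets these sums were 3300 and 788 CPM in the CKO and 33.7 and 1.42 CPM in the WT library. The part of other cells' RNA in the comparisons was not tested, and the median mitochondrial share was 2.60% and 2.33%. Of 3 measured sex-linked genes 1 was higher and 1 lower (median 0.44). Xist had no count and Ddx3y counts were found in both libraries, with Eif2s3y at 62.1 and 12.3 CPM (0.199, 0.0235 to 0.751).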

How the data were processed

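The deposited matrices hold unnormalized UMI counts as whole numbers and were written by Cell Ranger 6.0.2, per the file headers. Cell Ranger 5.0.0, Seurat 4.0.3 and mm10 are named in the submitters' processing notes. Both matrices hold 32285 genes. Counts of gated cells were summed per library and scaled to CPM. Shares carry Clopper-Pearson, levels exact Poisson and ratios exact conditional binomial 95% intervals, which cover counting error only. A gene was measured at a mean of at least 30 CPM over the libraries and called at 1.5-fold. For shares of cells with a UMI at equal depth, cells were thinned to 2000 UMIs (1 WT cell was shallower). Doublets were scored with Scrublet (scanpy 1.11.5), taking the quantile of the expected rate of 0.8% per 1000 cells, since the automatic threshold marked 532 WT but 9 CKO barcodes; marked cells were kept in the main results. Gene positions come from the GENCODE annotation of mm10. Python 3.11.15, numpy 2.4.6, scipy 1.17.1 and pandas 2.3.3 were used, and the scripts were tested on simulated data. No cell type annotation was used. Single members counted in the lists are not reported here.

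The rule, the members and the 21 gene lists were chosen with earlier results of these data known, and lists share some genes. From each list the 4 measured members whose interval lay farthest from 1 were named, and others where their role was needed. Over all measured genes, 12 per direction were named by the interval bound nearest to 1, with counts in at least 5 cells of the higher library, no more than 50% of counts from 1 cell, and at least 5% of the level in B cells and in other barcodes. That ranking left out receptor segments, unnamed genes and genes that are mitochondrial, ribosomal or sex-linked.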

Additional observations from a re-analysis of the deposited data

How the results depend on the processing

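No paired analysis was possible because each genotype has 1 library and the labels give no replicate numbers. The share of barcodes that were regulatory T cells was lower in the CKO library under all 11 other settings (ratio 0.180 to 0.402). It was 0.402 with fewer than 2 UMIs of other cell types and 0.393 without the 4 exclusions. The Foxp3 share of T cells ranged from 0.807 to 1.45. The effector median ranged from −2.46 to −0.28 and the resting median from 0.28 to 0.94 over 17 settings. The counts of 671 higher and 739 lower genes were 272 and 322 at a mean of at least 60 CPM and 1145 and 1367 at 15 CPM, where fewer or more genes are measured. With at least 2 Foxp3 UMIs 1074 were higher, with fewer than 2 UMIs of other types 1234 were higher, and 435 and 362 were lower without the Cd79a condition and without all 4. For these the cause was not tested, and cell numbers differ.

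A result was counted as turned only where its main value was at least 1.5-fold and its direction changed. Of 356 list medians under other settings 3 turned. Smaller medians that changed direction were not counted. Among them, that of the T cell receptor and immediate early list fell as low as −0.96, and that of the regulatory T cell markers rose to 0.09. Cycling was 0.48 without cycling cells, which removes the cells that set it, and 0.39 with fewer than 2 UMIs of other types. The helper list was 0.0087 in cells with at most 5 effector genes. Of 1281 gene ratios 24 turned, and their causes were not tested. With fewer than 2 UMIs of other types (30 WT and 12 CKO cells) these were Ahnak 1.64, Ccr7 0.605, Epb41l2 0.476, Igfbp4 0, Lef1 0.699, Lgals1 3.86, Nr4a1 0.403 and Rora 5.24. Sox4 with at least 1 Cd4 UMI and Stx2 with fewer than 2 UMIs of other types had no WT count and no ratio. With Ighm and Ighd not counted among those UMIs, Batf was 1.23 and Lgals1 1.19. With at least 2 Foxp3 UMIs Ccr7 was 0.852, Igfbp4 0.979 and Tubb2a 0.859. In cells with at most 5 effector genes Ahnak was 1.14, Batf 1.73, Crip1 1.20, Lgals1 1.67, Penk 1.58 and Rora 1.26. Without the Cd79a condition Ccr6 was 1.79 and Irf4 1.24, and without all 4 exclusions Ccr6 was 1.55, Cd83 1.18 and Irf4 1.65. Genes within 1.5-fold in the main setting were not counted. Among those, Klf2 fell as low as 0.471, Cd27 as low as 0.696 and Foxp3 as low as 0.736, and Ikzf2 rose to 1.28. The settings on effector genes, on Ighm and Ighd and on the exclusions were chosen after seeing the data. With 32 CKO cells, a gene absent there is bounded only at 18.5 CPM.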
